A study of Homo sapiens with 6 samples.

Results

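The genes described here are 10 of the 28 human genes of the ETS family, out of 62700 genes in the deposited table: ETS1, ETS2, ETV4, ETV5, ELF1, ELF3, ELF4, ERF, ELK1 and ELK3. They were chosen by name after their FPKM levels in the 2 groups had been seen, so their differences between the groups are given as a description and support nothing by themselves. The cells are A549, a widely used line grown from a human lung adenocarcinoma, in 2 groups with 3 RNA-seq libraries each. In sgH2AC19 cells a guide RNA was aimed at H2AC19, one of the clustered histone H2A genes, and the submitters describe them as knockout derivatives. The sgControl cells carry a control guide and have wild type as their genotype. Cells of both groups were grown in the same serum-containing medium, and the labels give no drug treatment, no harvest time and no word on whether each group is a clone or a pool.

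ETS factors share a DNA-binding domain that recognises a GGAA core, and they differ in what switches them on. ETS1, ETS2, ETV4, ETV5 and the ELK proteins are activated when the kinase ERK phosphorylates them, whereas ERF is a repressor that ERK drives out of the nucleus. ELF3, EHF and SPDEF are largely restricted to epithelia, and ERG, FLI1 and SPI1 mark endothelial and blood cells.

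Levels are FPKM, which divide the fragments of a gene by its length and by the depth of the library. The depth behind them, worked out from the steps between low values, was 35681162 to 45738439 reads per library, and H2AC19 (ENSG00000288859) itself was listed at 0 FPKM in all 6, so the target checks neither the knockout nor the labels. Among the libraries sgH2AC19 replicate 3 stood apart from replicates 1 and 2 on the second principal component (−16.0 against 8.09 and 8.32). Nothing says that replicates were separate cultures, so the spread between them may be technical. All 8 epithelial markers passed the filter, CLDN4 through its sgControl libraries alone. With CLDN4 counted, 5 were called higher and 3 (KRT19, KRT7 and CLDN4) lower, beside 12.0% higher and 11.0% lower over all genes. KRT18, for example, was at 412 ± 3.27 FPKM in sgH2AC19 and 302 ± 4.01 FPKM in sgControl cells (SD, n = 3 each). KRT19 went the other way, at 43.5 ± 2.66 FPKM in sgH2AC19 and 59.9 ± 2.22 FPKM in sgControl cells. Of 10 endothelial markers none reached 1 FPKM in 3 libraries, CLEC14A was at 0 throughout, and their summed level was 0.735 to 0.889 FPKM in sgH2AC19 and 0.708 to 1.2 FPKM in sgControl. The 10 leukocyte markers summed to 3.39 to 4.83 FPKM in sgH2AC19 and 3.14 to 4.05 FPKM in sgControl, with CD14 and ITGAM the highest and CD3E at 0. The 8 fibroblast markers summed to 6.51 to 7.1 FPKM in sgH2AC19 and 4.38 to 4.93 FPKM in sgControl, with POSTN at 0 and 2 of 3 measured members, COL1A1 and LUM, called higher, COL1A1 having passed the filter through its sgH2AC19 libraries alone. The part of these markers in any difference below was not tested.

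All 10 genes were well above the lower limit of measurement. By mean level in sgH2AC19 cells they were the first 10 of the 18 ETS genes that reached 1 FPKM in at least 3 libraries, although ELF4 at place 10 overlapped ETV3 at place 11. In sgControl cells they filled 10 of the first 11 places, with ETV3 at place 10 and ELF4, which overlapped it, at place 11. Together they held 79.4% ± 0.819 of the FPKM summed over the 28 family genes in sgH2AC19 and 82.9% ± 0.765 in sgControl (SD, n = 3 each). The family as a whole summed to 221 ± 3.22 FPKM in sgH2AC19 and 231 ± 7.61 FPKM in sgControl, a ratio of 0.956. The ratio was 0.974 without sgControl replicate 2, the library with the highest family sum. ETS1 alone averaged 11.0 FPKM in sgH2AC19 and 24.3 FPKM in sgControl, a wider gap than that of the family sums. Each member rested on at least 1222 recovered reads in every library, so the counting error of a single value was at most 2.86%.

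The member with the largest difference was ETS1, an ERK-responsive activator known in endothelial and lymphoid cells and in invasive tumours (ENSG00000134954, chromosome 11 from 128458761 to 128587558, minus strand, GENCODE 29 on GRCh38). It was at 10.2, 10.9 and 11.9 FPKM in sgH2AC19 replicates 1 to 3, against 22.1, 27.7 and 23.2 FPKM in sgControl replicates 1 to 3. Every sgH2AC19 library was below every sgControl library, and sgControl replicate 2 was the highest of its group. The mean of 11.0 ± 0.885 FPKM in sgH2AC19 was 0.453 times the mean of 24.3 ± 2.93 FPKM in sgControl (SD, n = 3 each). On the log2(FPKM + 1) scale the difference was −1.07 (SE 0.0917), and only 31 of the 12871 genes tested differed by more. ETS1 thus took place 8 of the 18 measured ETS genes in sgH2AC19, next to ELK1 and overlapping it, and place 3 in sgControl, with no overlap with its neighbours there.

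ETS2, the closest paralogue of ETS1 and likewise activated through the RAS-ERK pathway, was not called. Its levels were 14.5, 15.3 and 18.3 FPKM in sgH2AC19 and 14.0, 16.7 and 13.4 FPKM in sgControl, and the groups overlapped. sgH2AC19 replicate 3 held the highest value, and the log2 difference of 0.12 (SE 0.106) was 0.02 without it and 0.21 without sgControl replicate 2. The ratio of ETS1 to ETS2 within a library, which no scaling between libraries can change, was 0.652 to 0.714 in sgH2AC19 and 1.58 to 1.74 in sgControl. ETS2 therefore stood above ETS1 in all sgH2AC19 libraries and below it in all sgControl libraries.

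**Figure D1:**
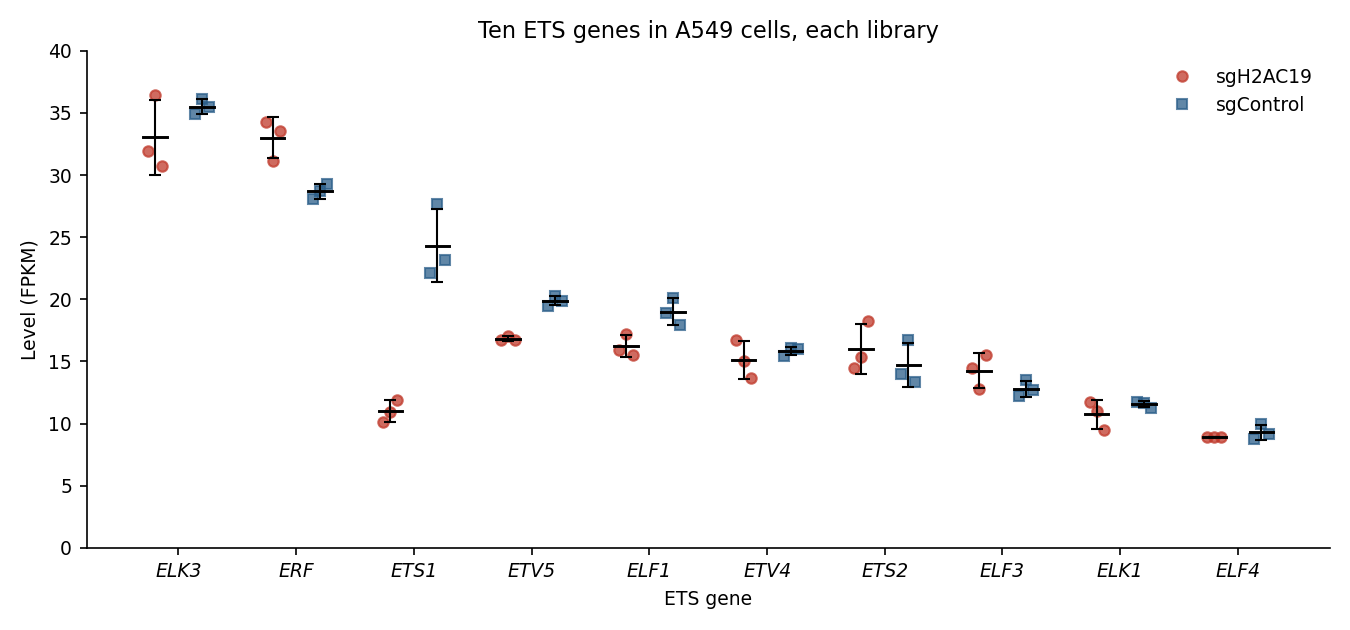
FPKM (vertical axis) of the 10 ETS genes (horizontal axis, ordered by their sgControl mean) in each sgH2AC19 (circles) and sgControl (squares) library, with horizontal lines at the means of 3 libraries and bars for 1 SD. The circles of ETS1 lie between 10.2 and 11.9 FPKM and its squares between 22.1 and 27.7 FPKM, whereas the 2 groups of ETS2, ETV4, ELF3, ELF4, ELK1 and ELK3 overlap.

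ETV5 and ETV4 belong to the PEA3 group, activators that act downstream of FGF and EGF receptor signalling and are required for branching of the mouse lung. ETV5 (ENSG00000244405) was at 16.7, 17.0 and 16.7 FPKM in sgH2AC19, against 19.5, 20.3 and 19.9 FPKM in sgControl. The groups did not overlap, and the spread within each was small beside the gap between them. The means were 16.8 ± 0.197 FPKM in sgH2AC19 and 19.9 ± 0.38 FPKM in sgControl, a log2 difference of −0.23 (SE 0.0401).

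ETV4 (ENSG00000175832) was at 16.7, 15.0 and 13.7 FPKM in sgH2AC19 and at 15.4, 16.1 and 16.0 FPKM in sgControl. The sgH2AC19 libraries lay on both sides of the sgControl range. The log2 difference was −0.06 (SE 0.0712), and without sgH2AC19 replicate 3, the lowest, it was 0.0016 and so turned in sign. The ratio of ETV5 to ETV4 within a library was 1.00 to 1.22 in sgH2AC19 and 1.24 to 1.26 in sgControl.

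ERF, a repressor that competes for ETS sites until ERK phosphorylation removes it from the nucleus, was the only member past the threshold upward (ENSG00000105722). It was at 34.3, 31.1 and 33.5 FPKM in sgH2AC19, against 28.1, 28.7 and 29.3 FPKM in sgControl, with no overlap. The means were 33.0 ± 1.66 FPKM in sgH2AC19 and 28.7 ± 0.579 FPKM in sgControl, a log2 difference of 0.19 (SE 0.049). In sgH2AC19 ERF overlapped ELK3 for the first place among the ETS genes, while in sgControl it was second, below all ELK3 values. The call was lost without any 1 sgControl library or sgH2AC19 replicate 1, with log2 differences of 0.17 to 0.21 in those fits.

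ELK1 and ELK3 are ternary complex factors, which bind beside the serum response factor SRF at immediate early genes. ELK3, which represses unless phosphorylated, had the highest mean of the ETS genes in both groups, at 31.9, 36.4 and 30.8 FPKM in sgH2AC19 and 34.9, 36.1 and 35.4 FPKM in sgControl. Its sgH2AC19 libraries spread widely enough to hold both the highest and the lowest of the 6 values. ELK1 was at 11.7, 11.0 and 9.47 FPKM in sgH2AC19 and 11.7, 11.6 and 11.3 FPKM in sgControl, with the low value in sgH2AC19 replicate 3. Neither was called, with log2 differences of −0.10 (SE 0.0653) for ELK3 and −0.10 (SE 0.0741) for ELK1, and −0.06 and −0.02 without that library. ELK3 was at −0.17 without sgH2AC19 replicate 2, and ELK1 at −0.16 without sgH2AC19 replicate 1.

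Among the ELF genes, ELF1, a broadly expressed activator first studied in lymphocytes, was called lower (ENSG00000120690). It was at 15.9, 17.2 and 15.5 FPKM in sgH2AC19, against 18.9, 20.1 and 17.95 FPKM in sgControl, without overlap. The log2 difference of −0.22 (SE 0.0598) lost its call in all fits without 1 library except the one without sgH2AC19 replicate 2, with values from −0.25 to −0.18 there. ELF4, a related factor known from innate immunity, was at 8.95, 8.92 and 8.90 FPKM in sgH2AC19 and at 8.79, 9.95 and 9.12 FPKM in sgControl. The sgControl range enclosed all sgH2AC19 values, and the log2 difference was −0.05 (SE 0.0536), −0.0046 without sgControl replicate 2 and −0.09 without sgControl replicate 1.

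ELF3, an epithelial ETS factor, was at 14.5, 12.8 and 15.5 FPKM in sgH2AC19 and 12.2, 13.5 and 12.7 FPKM in sgControl. Only sgH2AC19 replicate 2 fell within the sgControl range, and the log2 difference was 0.14 (SE 0.0752), 0.08 without sgH2AC19 replicate 3 and 0.22 without sgH2AC19 replicate 2. The ratio of ELF3 to ETS1 was 1.17 to 1.43 in sgH2AC19 and 0.488 to 0.551 in sgControl. ELF3 itself was not called, while the mean of ETS1, the divisor, was 0.453 times that in sgControl. The gap in the ratio is thus mostly that of ETS1.

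In all, 4 of the 10 members passed the threshold of 0.05 for the adjusted p (limma, Benjamini-Hochberg over the 12871 genes tested), 3 lower and 1 higher, and 6 did not. Over all genes 23.1% passed, 11.0% lower and 12.0% higher. The same 4 genes were the members whose groups did not overlap, as was so for 43.2% of all genes. Since this contrast was in view when the members were chosen, nothing is read from these shares. The count was 2, ETS1 and ETV5, when any 1 sgControl library or sgH2AC19 replicate 1 was left out. Over all genes these fits also called fewer. They called 904 higher and 609 lower of 12644 without sgControl replicate 2, and 1079 and 1056 of 12628 without sgH2AC19 replicate 1. With all 6 libraries the calls were 1545 higher and 1422 lower of 12871. The median log2 difference of the 10 members was −0.08, beside −0.01 over all genes tested, and −0.04 without sgH2AC19 replicate 3.

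Among the rest of the family the called genes were all higher in sgH2AC19 cells. Of the 18 remaining ETS genes 8 were measured. Of these 3 rose, 0 fell and 5 were not called (limma), beside 12.0% higher and 11.0% lower over all genes. The counts were also 3 and 0 with voom on the recovered reads and at an unadjusted p under 0.05. Each of the 3 was called in every fit, including those without 1 library.

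SPDEF, a factor of secretory and goblet cells in the airway (ENSG00000124664), was at 3.48, 3.28 and 3.56 FPKM in sgH2AC19, against 1.60, 0.925 and 1.18 FPKM in sgControl. The lowest sgH2AC19 library was above the highest sgControl library. The means of 3.44 ± 0.146 FPKM in sgH2AC19 and 1.24 ± 0.34 FPKM in sgControl give a ratio of 2.78, and the log2 fold change was 1.00 (SE 0.11, limma adjusted p = 0.00164). Adding 1 before taking logs makes this smaller than the log2 of that ratio, and voom on the recovered reads gave 1.52. It rested on 70 to 305 reads per library, a counting error of up to 12.0%.

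EHF, an epithelial relative of ELF3 (ENSG00000135373), was at 7.48, 7.48 and 6.85 FPKM in sgH2AC19, against 4.41, 3.66 and 4.17 FPKM in sgControl. The groups were well apart, with means of 7.27 ± 0.362 FPKM in sgH2AC19 and 4.08 ± 0.383 FPKM in sgControl. The log2 fold change was 0.71 (SE 0.0692, limma adjusted p = 0.0012). Relative to ETS1 in the same library, EHF stood at 0.575 to 0.737 in sgH2AC19 and 0.132 to 0.199 in sgControl. ETS1, the divisor, was itself lower in sgH2AC19, so this gap is wider than that of EHF alone.

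ELK4, the third ternary complex factor (ENSG00000158711), was at 7.77, 9.52 and 8.33 FPKM in sgH2AC19, against 5.92, 6.27 and 6.20 FPKM in sgControl. It rose by 0.42 on the log2 scale (SE 0.0721, limma adjusted p = 0.0081), with no overlap. Its sum with ELK1 and ELK3 was 52.3 ± 4.28 FPKM in sgH2AC19 and 53.2 ± 0.756 FPKM in sgControl, so the total of the ternary complex factors differed by less than the spread of the sgH2AC19 libraries. The epithelial genes ELF3, ELF5, EHF and SPDEF summed to 25.0 ± 1.26 FPKM in sgH2AC19 and 18.1 ± 0.094 FPKM in sgControl, which was 11.3% ± 0.729 of the family sum in sgH2AC19 and 7.85% ± 0.274 in sgControl. Beside them the 8 epithelial markers summed to 970 to 1016 FPKM in sgH2AC19 and 838 to 869 FPKM in sgControl. That sum was mostly KRT18 and KRT8, which were called higher, while KRT19, KRT7 and CLDN4 were called lower. The part of these markers in the differences of the ETS genes was not tested. In bulk RNA a larger share of cells with such a transcript and more of it per cell cannot be told apart.

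The 5 measured family genes that were not called had log2 differences between −0.16 and 0.11. They were the repressor genes ETV3 (−0.16, SE 0.0943) and ETV6 (0.06, SE 0.0472), GABPA, which encodes a factor of housekeeping and mitochondrial genes (−0.15, SE 0.0747), ETV1 of the PEA3 group (−0.15, SE 0.0748) and the broadly expressed ELF2 (0.11, SE 0.0507). ETV1 was lower in all 3 sgH2AC19 libraries than in any sgControl library and ELF2 higher in all 3, without passing the test. The groups did not overlap in 43.2% of all genes tested, so nothing is read from this. ETV3 was at −0.05 without sgH2AC19 replicate 3, ETV1 at −0.09 without sgControl replicate 3, and GABPA at −0.09 without sgControl replicate 3 and −0.10 without sgH2AC19 replicate 1. The other 10 genes did not reach 1 FPKM in 3 libraries. ETV3L was at 0 throughout, ERG reached at most 0.0146 FPKM and SPI1 at most 0.0258 FPKM. FLI1, whose gene starts at 128686535 on the same chromosome as ETS1, was at 0.0654 to 0.0768 FPKM in sgH2AC19 and 0.103 to 0.189 FPKM in sgControl, on 10 to 30 reads. ETV2 reached 0.449 FPKM at most, and FEV, ETV7, ELF5, SPIB and SPIC stayed below it.

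**Figure D2:**
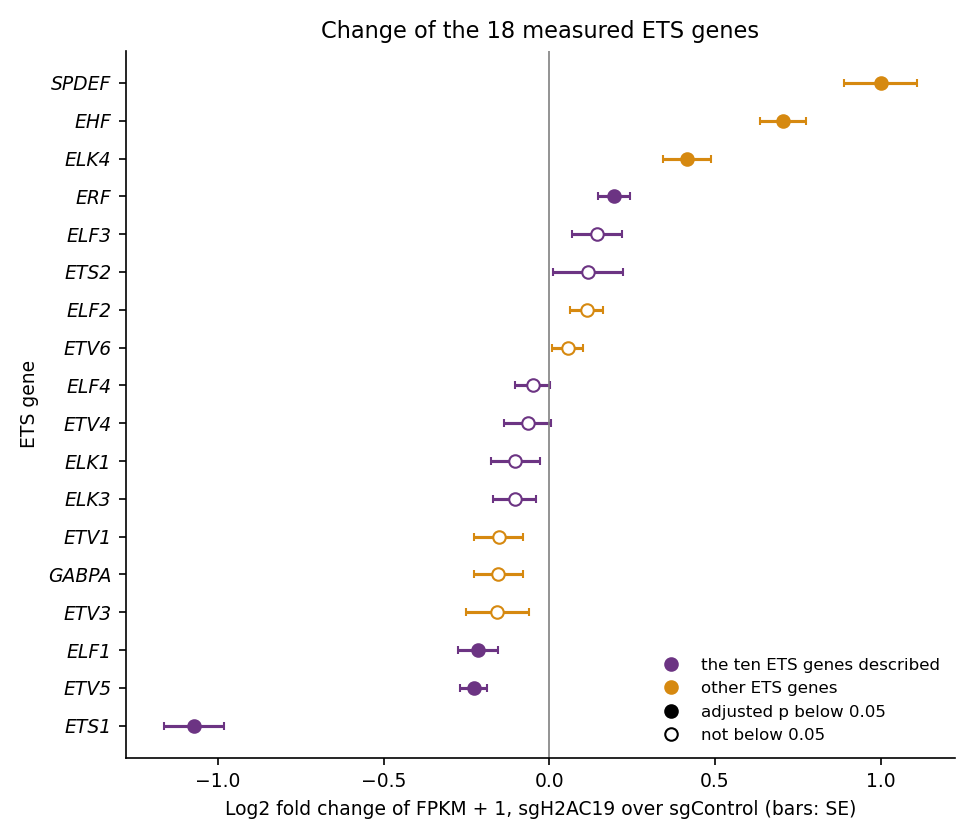
Log2 fold change of FPKM + 1 in sgH2AC19 over sgControl (horizontal axis, bars show the SE of limma's fit) for the 18 ETS genes measured (vertical axis), with filled points for an adjusted p below 0.05. ETS1 stands alone at −1.07 on the low side, and SPDEF, EHF and ELK4, at 1.00, 0.71 and 0.42, stand at the high end.

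**Figure D3:**
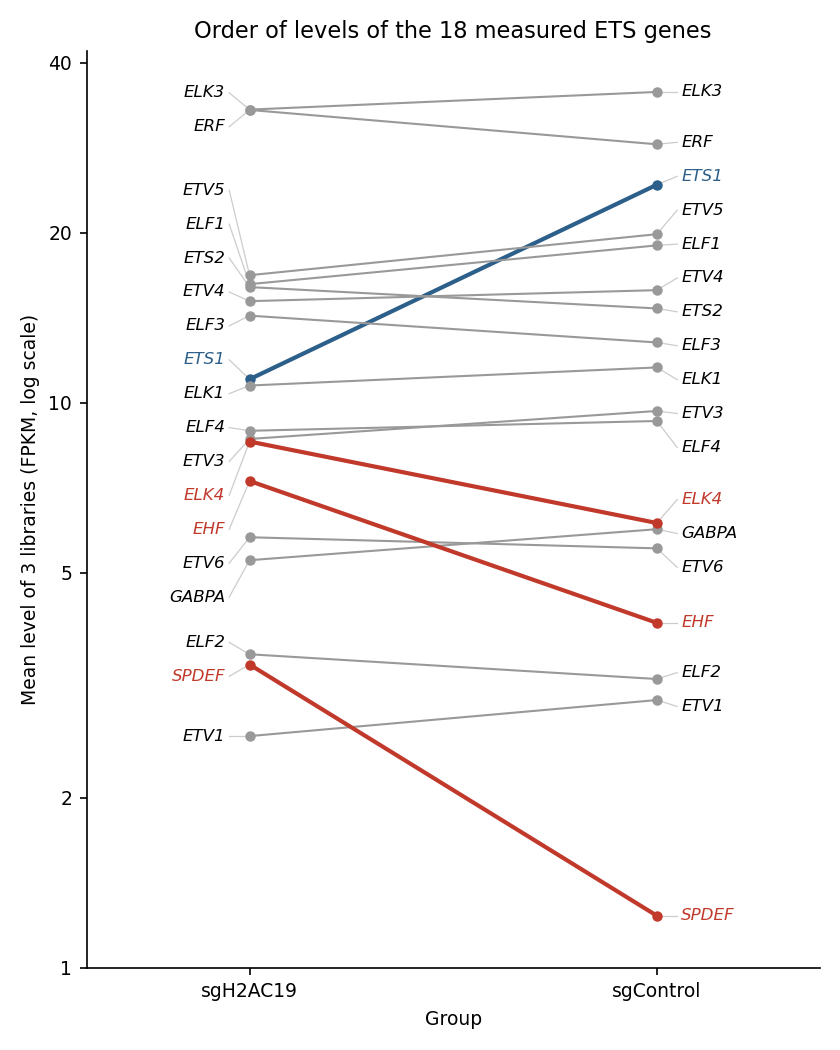
Mean FPKM of 3 libraries on a log axis for the 18 measured ETS genes in sgH2AC19 (left) and sgControl (right), with a line per gene, blue for ETS1 and red for the 3 genes called higher among the other family genes. The line of ETS1 ends at place 8 in sgH2AC19 and place 3 in sgControl, and the lines of ELK4, EHF and SPDEF lie higher in sgH2AC19.

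Promoter windows from 250 bases before to 50 after a RefSeq start (GRCh38.p14) were at hand for 7 of the 10 members, in 15 windows, and the others, ETS1, ETV4 and ETV5, are not covered by the counts that follow. The high-affinity ETS word CCGGAAGT, searched on both strands, was in 0 of these 15 and in 4.14% of all 35116 windows, and its inner word CGGAAG, which overlaps it, was in 0 of 15 and in 19.5% of all. The AP-1 word TGANTCA was in 1 of the 15, a window of ELF4, and in 7.71% of all. The word TGAATGAA, which the repressor capicua binds, and the CArG box of SRF were in 0 of the 15 and in 1.65% and 1.29% of all windows. Among the other family genes CCGGAAGT was found at ELK4 and GABPA, and TGAATGAA at SPDEF. The windows of ELK4, which rose, and of GABPA, which was not called, are shown because both hold CCGGAAGT close to the start. Beside them is 1 of the windows of ERF, the member called higher. It holds none of the words, as was so for every member window except 1 of ELF4. The windows shown are written 5′ to 3′ in the direction of the gene, with the ETS word in capitals. It begins 22 bases before the start in ELK4 and 67 before it in GABPA, where it lies on the opposite strand and is printed as ACTTCCGG. A match of letters is a description and not a bound site.
ELK4, chr1:205631962-205632261, minus strand: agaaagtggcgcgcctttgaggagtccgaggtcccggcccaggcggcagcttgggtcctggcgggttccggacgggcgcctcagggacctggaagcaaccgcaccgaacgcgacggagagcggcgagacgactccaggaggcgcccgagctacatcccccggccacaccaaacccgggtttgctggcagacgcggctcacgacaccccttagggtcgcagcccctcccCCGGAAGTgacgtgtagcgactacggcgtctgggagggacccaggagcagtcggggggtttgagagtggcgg
GABPA, chr21:25734722-25735021, plus strand: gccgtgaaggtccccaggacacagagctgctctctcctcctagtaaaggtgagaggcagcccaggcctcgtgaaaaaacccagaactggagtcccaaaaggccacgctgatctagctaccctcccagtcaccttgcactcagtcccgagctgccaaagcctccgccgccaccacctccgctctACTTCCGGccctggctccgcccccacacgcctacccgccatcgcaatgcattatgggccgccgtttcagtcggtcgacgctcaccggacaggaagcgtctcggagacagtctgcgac
ERF, chr19:42255079-42255378, minus strand: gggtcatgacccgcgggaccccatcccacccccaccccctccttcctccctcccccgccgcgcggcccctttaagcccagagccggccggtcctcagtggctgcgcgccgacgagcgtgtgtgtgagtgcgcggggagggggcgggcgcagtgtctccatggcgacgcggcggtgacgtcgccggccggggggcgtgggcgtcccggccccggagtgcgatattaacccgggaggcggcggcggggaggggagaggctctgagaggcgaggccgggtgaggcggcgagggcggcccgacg

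The genes whose levels followed ETS1 most closely over the 6 libraries were SERTAD2, VIM and KCTD9, with Pearson r of 0.997, 0.997 and 0.996 on log2(FPKM + 1). The measure was taken against 6804 genes with a mean of at least 5 FPKM, of which 258 had r above 0.95. The group means were not removed, so r holds the gap between the 2 groups as well as the spread within them. Whether these genes are regulated together was not tested. VIM, which encodes vimentin and is itself a known target of ETS factors, was at 98.1, 98.8 and 105 FPKM in sgH2AC19, against 123, 131 and 124 FPKM in sgControl, so sgControl replicate 2 was the highest library for VIM as for ETS1. SERTAD2 averaged 8.21 ± 0.213 FPKM in sgH2AC19 and 13.0 ± 0.932 FPKM in sgControl, and KCTD9 32.2 ± 1.95 FPKM in sgH2AC19 and 53.2 ± 4.6 FPKM in sgControl (SD, n = 3 each). The genes closest to ERF were CD151, LINC00963 and NACC1, with r of 0.997, 0.994 and 0.993, and 66 genes had r above 0.95.

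Genes known as targets of ETS1 and the PEA3 group, many of them matrix proteases and surface receptors of invading cells, were lower more often than higher. Of 20 listed genes 12 were measured. MMP1 passed the filter through its sgControl libraries alone and is left out of the count. Of the other 11, 5 fell, 2 rose and 4 were not called, beside 11.0% lower and 12.0% higher over all genes. Their median log2 difference was −0.15, beside −0.01 over all genes, and −0.22 to −0.11 in the fits without 1 library. The list was drawn up with earlier results of these data known, so its direction is no independent evidence. MMP1, the interstitial collagenase, was at 0.743, 0.614 and 0.327 FPKM in sgH2AC19, against 4.11, 4.23 and 4.15 FPKM in sgControl. The ratio of its means was 0.135, and its log2 difference was −1.74 with 1 added to the FPKM, −2.75 with 0.1 added and −2.94 with voom. VIM was at −0.33, NRP1, a co-receptor for VEGF and semaphorins, at −0.32 and MET, the receptor of hepatocyte growth factor, at −0.41 (limma adjusted p from 0.00356 to 0.0057). PLAU, which encodes urokinase, was called lower at −0.38. The genes that rose were the gelatinase gene MMP2 at 0.28 and the matrilysin gene MMP7 at 0.35. MMP7 lost its call without any 1 sgControl library or sgH2AC19 replicate 1 (limma adjusted p from 0.0678 to 0.12) and under both other scalings (0.058 and 0.0543). In the fits without 1 library 4 to 6 of the 11 genes were lower and 1 to 3 higher, with 1 higher without any 1 sgControl library or sgH2AC19 replicate 1. The endothelial targets FLT1, KDR, TEK, CDH5 and ANGPT2 did not reach the filter, with means of at most 0.0643 FPKM in either group.

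The immediate early genes that SRF and the ELK factors control were called lower in 3 of 8 measured cases and higher in 0 (limma; 3 and 0 also at an unadjusted p under 0.05 and with voom). Without sgH2AC19 replicate 3 they were 4 lower and 1 higher, and without sgControl replicate 2, sgH2AC19 replicate 1 or sgH2AC19 replicate 2 they were 2 lower. EGR1, a zinc finger factor and the classical target, was at 5.54 ± 0.474 FPKM in sgH2AC19 and 12.3 ± 2.3 FPKM in sgControl (log2 fold change −1.01, SE 0.119, limma adjusted p = 0.00206). MCL1, an inhibitor of apoptosis, fell by 0.53 and JUNB, an AP-1 subunit, by 0.48 on the log2 scale. JUNB lost its call without sgControl replicate 2 (limma adjusted p = 0.0647), sgH2AC19 replicate 1 (0.0576) or sgH2AC19 replicate 2 (0.0547). FOS was at 2.72 ± 0.965 FPKM in sgH2AC19 and 3.03 ± 0.643 FPKM in sgControl, and DUSP1 at 219 ± 8.03 FPKM in sgH2AC19 and 222 ± 24.5 FPKM in sgControl, and neither was called. The share over all genes was 11.0% lower and 12.0% higher. Earlier results of these data were known when the list was drawn up, so its direction is no independent evidence. The median of the list was −0.15, and it was −0.05 without sgH2AC19 replicate 2, −0.08 without sgControl replicate 2 and −0.31 without sgH2AC19 replicate 3.

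Genes known to follow ERK activity, the kinase pathway that phosphorylates the ETS activators, were called lower in 9 of 13 measured cases and higher in 0 (limma; 9 and 0 also at an unadjusted p under 0.05 and with voom, and 8 to 10 and 0 without 1 library), beside 11.0% lower and 12.0% higher over all genes, with a median of −0.40. CCND1, which encodes cyclin D1, was at 54.6 ± 1.54 FPKM in sgH2AC19 and 86.0 ± 3.16 FPKM in sgControl (log2 fold change −0.65, SE 0.0446, limma adjusted p = 0.000384). FOSL1, an AP-1 subunit, was at −1.33, the ERK phosphatase gene DUSP5 at −0.89 and SPRED3, an inhibitor of the pathway, at −0.40. DUSP4, another phosphatase of the pathway, was at 86.2 ± 4.55 FPKM in sgH2AC19 and 83.2 ± 3.0 FPKM in sgControl and was not called. This list too was drawn up with earlier results of these data known, so its direction is no independent evidence.

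In the kinase pathway itself 3 of 18 measured genes were called lower and 3 higher, near the shares over all genes (11.0% lower and 12.0% higher), and the median was −0.01, with −0.03 to 0.0036 without 1 library. EGFR, the EGF receptor, was at 38.4 ± 2.59 FPKM in sgH2AC19 and 51.0 ± 1.58 FPKM in sgControl (log2 fold change −0.40, limma adjusted p = 0.0041). MAP2K1, which encodes the ERK kinase MEK1, was at −0.29 and the adaptor gene GRB2 at −0.17, while RPS6KA3, a kinase downstream of ERK, was at 0.28. GRB2 kept its call, among the fits without 1 library, only without sgH2AC19 replicate 3 (limma adjusted p from 0.0582 to 0.0942 in the other 5). NRAS, one of the RAS genes, was at 17.5, 16.8 and 32.4 FPKM in sgH2AC19 and 27.4, 29.1 and 29.5 FPKM in sgControl. Only sgH2AC19 replicate 3 was high in its group, and NRAS was called lower without that library (log2 fold change −0.71, limma adjusted p = 0.000542) and in no other fit. Without 1 library the pathway had 1 to 3 genes higher and 2 to 4 lower, with 1 higher without sgControl replicate 2 or 3 or sgH2AC19 replicate 1 or 2.

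Genes for proteins that repress or degrade the PEA3 factors were called higher in 2 of 9 measured cases and lower in 1, near the shares over all genes (12.0% higher and 11.0% lower). ATXN1L, a partner of capicua, rose to 10.0 ± 0.386 FPKM in sgH2AC19, against 7.64 ± 0.135 FPKM in sgControl (log2 fold change 0.35, SE 0.0468, limma adjusted p = 0.00318). Its relative ATXN1 was at 0.24 and RBX1, a subunit of cullin ubiquitin ligases, at −0.23. ATXN1 kept its call, among the fits without 1 library, only without sgH2AC19 replicate 1 (limma adjusted p from 0.0562 to 0.101 in the other 5), and RBX1 lost its call without sgControl replicate 2 or 3 or sgH2AC19 replicate 1 (0.0845 to 0.104). CIC, which encodes capicua, was at 9.72 ± 0.791 FPKM in sgH2AC19 and 9.39 ± 0.613 FPKM in sgControl, and COP1, a ligase for ETV proteins, at 10.9 ± 0.216 FPKM in sgH2AC19 and 11.1 ± 0.572 FPKM in sgControl, and neither was called.

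Of 17 measured partners and cofactors 4 rose and 1 fell, and the 5 called are near the 23.1% called over all genes. MRTFA, which competes with the ELK factors for SRF, was at 8.88 ± 0.5 FPKM in sgH2AC19 and 6.01 ± 0.0966 FPKM in sgControl (log2 fold change 0.49, SE 0.0521, limma adjusted p = 0.00147). HDAC1, a deacetylase of repressor complexes, rose by 0.37, and CBFB, the partner of RUNX factors that bind with ETS1, fell by 0.25. CBFB lost its call without sgControl replicate 1 (limma adjusted p = 0.0595) or 3 (0.0554). Without sgH2AC19 replicate 3 the list had 5 genes higher and 2 lower, and without sgH2AC19 replicate 1 or any 1 sgControl library 2 were higher. SRF was at 8.92 ± 1.4 FPKM in sgH2AC19 and 10.1 ± 0.409 FPKM in sgControl and was not called, but was called lower without sgH2AC19 replicate 3 (log2 fold change −0.29, limma adjusted p = 0.0085), the highest library of its group. It was at −0.11 without sgH2AC19 replicate 1.

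Only 4 of 15 listed targets of ELF3 and related epithelial genes were measured, 2 called higher and 1 lower. Over all genes 12.0% were called higher and 11.0% lower, and 4 genes are too few to set against these shares. TGFBR2, the type II receptor of TGF-beta and a known ELF3 target, was at 81.1 ± 2.58 FPKM in sgH2AC19 and 55.0 ± 1.36 FPKM in sgControl (log2 fold change 0.55, SE 0.0424, limma adjusted p = 0.000541). CDH1, which encodes E-cadherin, was at 0.32 and the chemokine gene CCL20 at −1.06. Among the scalings and the fits without 1 library CDH1 lost its call under median-ratio and upper-quartile scaling and without any 1 sgControl library or sgH2AC19 replicate 1 (limma adjusted p up to 0.132), and CCL20 without any 1 sgControl library (up to 0.0679).

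**Figure D4:**
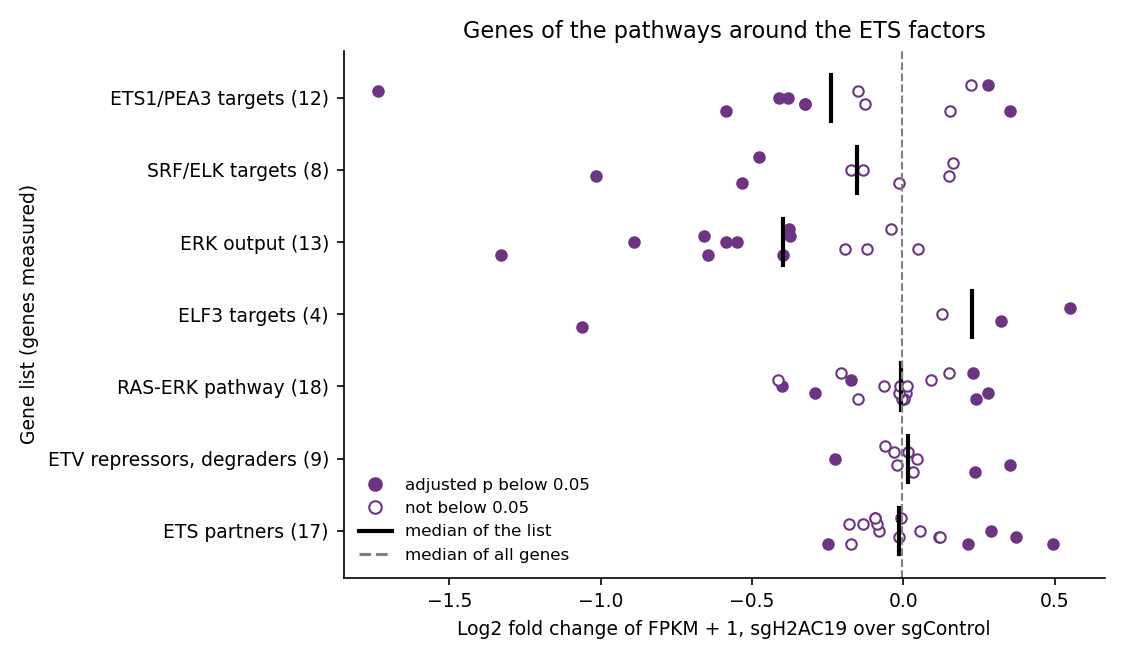
Log2 fold change of FPKM + 1 in sgH2AC19 over sgControl (horizontal axis) for the measured genes of 7 lists (vertical axis), with filled points for an adjusted p below 0.05, thick lines at the medians of the lists and a dashed line at the median of all genes tested. The medians of ERK output and of the ETS1 and PEA3 targets, here with MMP1, lie at −0.40 and −0.24, and those of the kinase pathway and of the partners at −0.01.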

How the data were processed

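RNA of 6 A549 samples was made into libraries with a SMARTER mRNA kit, per the labels' protocols. The deposited table holds FPKM, computed by the authors, with 1 column per library, per the file headers. No aligner, counter or annotation is named in the sources used here. The submitters' processing notes name the mouse builds GRCm38 and mm10, whereas all 62700 gene IDs matched human Ensembl genes, so positions come from GENCODE 29. The columns sgNC were taken as sgControl, and the columns sgH2AC as sgH2AC19.

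The filter kept 12871 genes that reached 1 FPKM in 3 or more libraries. log2(FPKM + 1) was compared with limma 3.58.1 (R 4.3.3, mean-variance trend, two-sided, Benjamini-Hochberg adjustment, threshold 0.05). FPKM do not correct for composition. Reads were recovered from the spacing of the FPKM and were whole, within 0.001 reads, in 12869 genes tested. The annotated length gave whole reads in 3759 of these. In the rest the smallest length that gave whole reads was taken. Whole reads are therefore no check there, and those reads are the lowest counts found to match the FPKM. The fit was tested on simulated data. Promoters are RefSeq's. Summaries used Python 3.11.15, pandas 2.3.3 and numpy 2.4.6.

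The members, gene lists and tests were chosen with earlier results of these data known. Named were all measured ETS genes, up to 4 called genes per list with the smallest adjusted p (some counted genes are not reported here by name), and the 3 genes most like the most raised and most lowered called member. Other list genes, such as MMP2, MMP7, PLAU, NRAS, FOS, DUSP1, DUSP4, CIC, COP1 and SRF, and the markers were named after their values were seen. Alternatives were median-ratio and upper-quartile scaling, every gene above 0 FPKM, a filter on the mean (1 FPKM), a pseudocount of 0.1, voom on recovered reads, a replicate block, and leaving out each library.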

Additional observations from a re-analysis of the deposited data

How the results depend on the processing

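Of the 10 members 4 were called, and 2 over all genes above 0 FPKM, where 36938 genes share the adjustment. Without 1 library the count was 2 to 4. Of the genes of the 7 pathway lists, each taken once, 37 of 79 were called, and 23 of 100 over all genes above 0 FPKM. Without 1 library 23 to 43 of 78 or 79 were called (23 without sgControl replicate 2 or 3). MMP1, which passed the filter through its sgControl libraries alone, is among the 79 and the 37. With all 6 libraries 23.1% of the 12871 genes tested were called, and the calls over all genes moved between the fits as well. They were 900 higher and 653 lower of 36938 above 0 FPKM. Without sgControl replicate 2 they were 904 and 609 of 12644, and without sgH2AC19 replicate 3 1784 and 1645 of 12681. Since the lists were drawn up with earlier results known, nothing is read from the counts of the lists. At an unadjusted p under 0.05 (limma) the kinase pathway had 4 genes higher and 5 lower and the partners 5 and 2. The ETS1 and PEA3 targets, MMP1 included, had 3 and 6, and the other lists kept their counts. A gene called at the adjusted threshold also passes unadjusted, so such counts can only stay or rise. The shares over all genes at that p are not given here. The 3 calls among the other ETS genes stayed in every fit. The ratio of the family sum was 0.943 to 0.974 without 1 library. The log2 difference of ETV4 was −0.13 to 0.0016 without 1 library, the upper end being the fit without sgH2AC19 replicate 3. Of the 32 called genes followed through the alternatives, 22 were called in every fit that tested them, MMP1 among them, which fell below the filter without any 1 sgControl library. The causes were not tested. With the replicate number as a block, 4 members, 3 other ETS genes and 33 pathway genes were called, and CDH1, ATXN1 and MMP7 were not (limma adjusted p = 0.0519, 0.0678 and 0.0578). These 3 were not called over all genes above 0 FPKM either (0.156, 0.0928 and 0.151). Same-numbered libraries correlated weakly in their deviations from the group means (r of 0.0524, 0.0346 and 0.0602), so the numbers were not taken as pairs, although each library correlated best with its own number. The scalings moved the median of all genes by less than 0.01 on the log2 scale. Depth limits SPDEF most among the called ETS genes, with 70 reads in its lowest library. The intervals and errors of reads cover counting error only.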
